A study of Mus musculus with 8 samples.

Results

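The genes described here are 10 genes used as markers of the thalamus: Prkcd, Slitrk6, Tcf7l2, Lef1, Slc17a6, Rora, Zic1, Synpo2, Tnnt1 and Ramp3. All probes that the array files assign to these names were taken, which gave 23 probes for 10 of the 27373 gene names on the array. Hippocampal RNA was measured in 4 BTBR mice and 4 B6 mice, with 1 mouse on each single-color Agilent array of 60-base probes. The BTBR mice were labeled BTBR T+ Itpr3tf/J, an inbred strain studied as a model of autism, and the B6 mice C57BL/6J wild type. All mice were male, 5 months old and given no drug, and the tissue was labeled whole hippocampus. The strain background tag of the BTBR samples reads C57BL/6J, while their titles, sources and genotype tags place them in the BTBR group.

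The thalamus is the relay of the forebrain and lies beneath the hippocampus. Its projection neurons are glutamatergic and load their synaptic vesicles mainly through the transporter encoded by Slc17a6, whereas the principal neurons of the hippocampus rely mostly on a related transporter. Thalamic neurons keep the transcription factors Tcf7l2 and Lef1, partners of beta-catenin in the Wnt pathway, into adult life, and many of them contain the kinase encoded by Prkcd. None of the 10 genes marks the thalamus alone: Rora and Zic1 also serve cerebellar neurons, and Tnnt1 is best known from slow muscle. In RNA from a whole piece of tissue, fewer cells of a type and less RNA per cell cannot be told apart.

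The probes are shown because everything below rests on them, and because probes of 1 gene did not always read alike. Positions are on mm9, as the array files give them, and no gene models of that build were used here. For Prkcd, the brighter probe lies at chr14:31409035-31409094 on the minus strand. The other Prkcd probe covers 588 genomic bases, chr14:31414383-31414970, so that its 60 bases are not contiguous in the genome.
Prkcd A_51_P460734: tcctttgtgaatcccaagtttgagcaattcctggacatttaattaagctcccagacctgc
Prkcd A_52_P197498: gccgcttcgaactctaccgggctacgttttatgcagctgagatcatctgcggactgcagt
Slitrk6 had a single probe, at chr14:111147943-111148002 on the minus strand.
Slitrk6 A_51_P503822: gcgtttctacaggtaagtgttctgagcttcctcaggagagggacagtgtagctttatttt
The pair of Zic1 probes, at chr9:91255445-91255504 and chr9:91255425-91255484 on the minus strand, share 40 bases, printed in capitals, and do not measure Zic1 independently of each other.
Zic1 A_52_P428654: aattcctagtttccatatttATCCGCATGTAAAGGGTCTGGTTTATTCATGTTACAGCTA
Zic1 A_51_P194230: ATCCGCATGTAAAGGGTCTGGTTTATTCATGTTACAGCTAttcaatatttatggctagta
Synpo2 had 4 probes on the minus strand, at chr3:122813970-122814029, chr3:122815498-122815557, chr3:122779807-122779866 and chr3:122810244-122810303, in the order printed, and these are shown because they gave different readings.
Synpo2 A_51_P119776: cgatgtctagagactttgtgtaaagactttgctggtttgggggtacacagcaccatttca
Synpo2 A_52_P223127: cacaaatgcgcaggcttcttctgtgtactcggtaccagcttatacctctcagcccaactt
Synpo2 A_52_P948080: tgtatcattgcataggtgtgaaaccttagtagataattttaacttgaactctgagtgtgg
Synpo2 A_52_P647260: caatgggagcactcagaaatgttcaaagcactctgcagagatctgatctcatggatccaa

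Between 56.8% and 71.9% of the probes on an array were well above background, and none was saturated, which sets how low a signal these arrays can resolve. The 8 arrays lay on 2 slides that were scanned separately, with replicates 1 and 2 of both strains on slide 1 and replicates 3 and 4 on slide 2. Values are normalized log2 intensities, and strain differences are BTBR minus B6 on that scale. Of the 23 probes, 20 passed the filter on dim probes, and each of the 10 genes was described by its brightest probe among these. One probe each of Tcf7l2 and Lef1 was well above background on 0 of 8 arrays, and one Synpo2 probe only on 2 B6 arrays.

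Each of the 10 genes had its highest value on the same array, BTBR replicate 1. Across all 18399 genes tested, that array was the highest of the 8 for 17.2% of genes. Its value stood above the mean of the other 3 BTBR arrays by between 1.15 and 3.89 on the log2 scale, with a median of 2.94, against a median of -0.01 over all genes tested. A gap over 1 was found for 10 of 10 genes and for 0.940% of all genes tested. Synpo2 had the largest gap of all 18399 genes, and Tcf7l2, Slc17a6, Ramp3, Prkcd, Slitrk6 and Zic1 ranked 5, 6, 7, 8, 9 and 10. Tnnt1 ranked 12, Rora 68 and Lef1 117. 

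**Figure D1:**
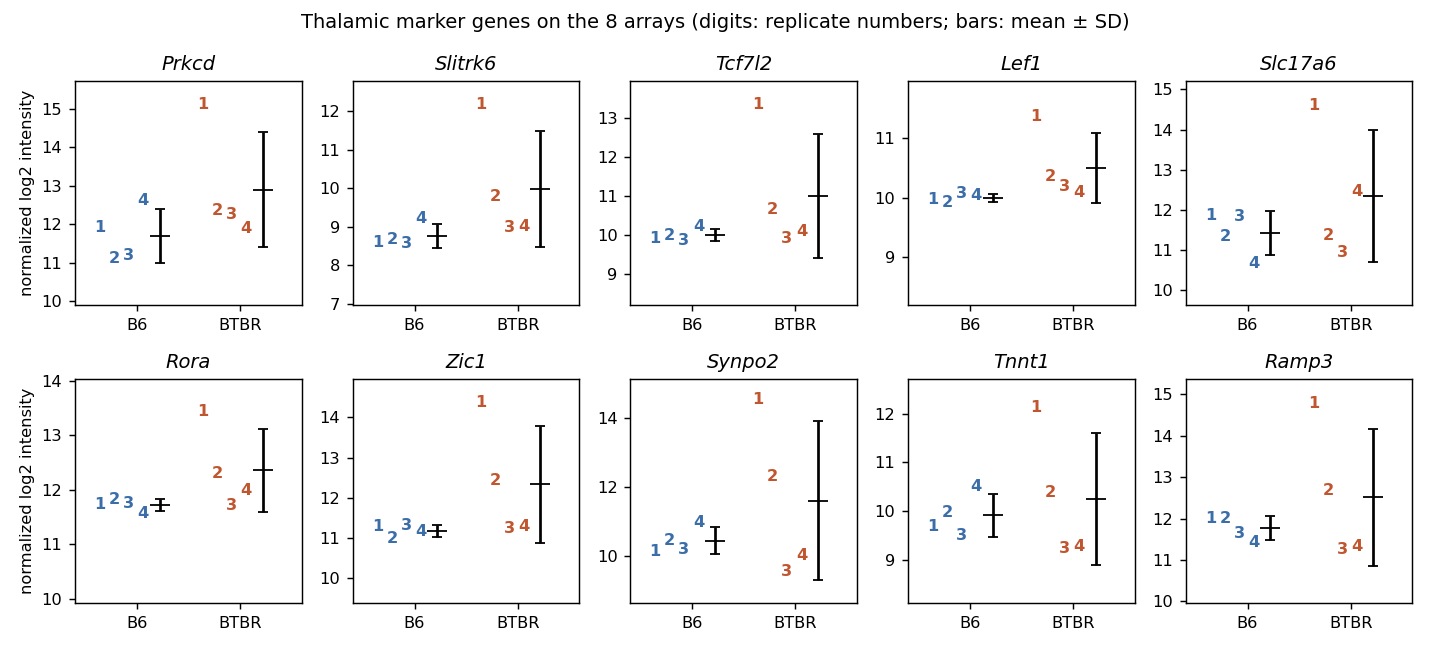
Normalized log2 intensity of the brightest probe of each of the 10 genes, with B6 in blue and BTBR in orange. Digits are replicate numbers, horizontal marks are means and bars are SD (n = 4); BTBR replicate 1 is the highest point in all 10 panels, and each panel has its own vertical scale, which does not start at 0.

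Transcription factors are described first. Tcf7l2, an HMG-box factor of the Wnt pathway, measured 9.92, 9.98, 9.87 and 10.23 on B6 replicates 1 to 4, and 13.36, 10.66, 9.91 and 10.10 on BTBR replicates 1 to 4. BTBR replicate 1 was far above the others, replicate 2 was slightly above all B6 arrays, and replicates 3 and 4 lay among the B6 arrays. The strain difference of Tcf7l2 was 1.0 (standard error 0.66, limma adjusted p = 0.494) and 0.22 without BTBR replicate 1 (limma adjusted p = 0.653). Lef1, the related factor, measured 9.97, 9.92, 10.07 and 10.03 on the B6 arrays and 11.35, 10.35, 10.19 and 10.08 on the BTBR arrays. Every BTBR value of Lef1 exceeded every B6 value, although BTBR replicate 4 did so by little. Such separation of the strains was seen for the brightest probe of 1 of the 10 genes and for 14.4% of all genes tested, and its exact permutation p of 0.0286 is the smallest that 4 arrays against 4 allow. The other Lef1 probe tested, A_51_P501145, did not separate the strains, with 9.28 on BTBR replicate 4 against 9.34 on B6 replicate 1 (exact permutation p = 0.0857). The difference of Lef1 was 0.50 (standard error 0.25, limma adjusted p = 0.339) and 0.21 without BTBR replicate 1 (limma adjusted p = 0.251).

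Rora, a nuclear receptor, measured 11.73, 11.82, 11.75 and 11.56 on the B6 arrays and 13.44, 12.29, 11.71 and 11.98 on the BTBR arrays. BTBR replicates 1, 2 and 4 exceeded the B6 range, and replicate 3 lay within it. With a second Rora probe, A_51_P477779, the strains did not overlap, since the lowest BTBR value was 11.68 and the highest B6 value 11.65 (exact permutation p = 0.0286). With the brightest Rora probe the strain difference came to 0.64 (standard error 0.32, limma adjusted p = 0.341), and to 0.28 with BTBR replicate 1 left out. Zic1, a zinc-finger factor, measured 11.28, 10.99, 11.31 and 11.16 on the B6 arrays and 14.36, 12.44, 11.24 and 11.29 on the BTBR arrays. Both BTBR mice of slide 1 were high for Zic1, and both of slide 2 lay inside the B6 range. The difference of Zic1 was 1.14 (standard error 0.61, limma adjusted p = 0.371) and 0.47 without BTBR replicate 1.

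Among the signaling and surface proteins, Prkcd, the delta isoform of protein kinase C, measured 11.91, 11.11, 11.18 and 12.61 on the B6 arrays and 15.12, 12.36, 12.25 and 11.88 on the BTBR arrays. B6 replicate 4 was the second highest of all arrays, above 3 of the 4 BTBR arrays, so that the strains overlapped. B6 mice averaged 11.70 ± 0.71 and BTBR mice 12.90 ± 1.49 (SD, n = 4 each). The difference of 1.20 (standard error 0.68, limma adjusted p = 0.411) fell to 0.46 without BTBR replicate 1 (limma adjusted p = 0.628). On the intensity scale, BTBR replicate 1 was 7.79-fold above the geometric mean of the other BTBR arrays.

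Slitrk6, a leucine-rich repeat membrane protein of the family that shapes neurites and synapses, measured 8.60, 8.66, 8.56 and 9.22 on the B6 arrays and 12.18, 9.78, 8.98 and 9.01 on the BTBR arrays. Here too B6 replicate 4 stood apart from the other B6 arrays, and it exceeded BTBR replicates 3 and 4. B6 mice averaged 8.76 ± 0.31 and BTBR mice 9.98 ± 1.51 (SD, n = 4 each). The difference of Slitrk6 was 1.22 (standard error 0.64, limma adjusted p = 0.361) and 0.49 without BTBR replicate 1 (limma adjusted p = 0.37). Ramp3, an accessory protein of calcitonin-family receptors, measured 12.00, 12.00, 11.63 and 11.42 on the B6 arrays and 14.78, 12.68, 11.26 and 11.32 on the BTBR arrays. Its BTBR values lay on both sides of the B6 range, high on slide 1 and low on slide 2. The difference of Ramp3 was 0.74 (standard error 0.69, limma adjusted p = 0.652), and it was -0.01 without BTBR replicate 1 (limma adjusted p = 0.994).

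Slc17a6, the vesicular glutamate transporter of thalamic projection neurons, measured 11.87, 11.34, 11.83 and 10.67 on the B6 arrays and 14.61, 11.37, 10.93 and 12.45 on the BTBR arrays. It was the only one of the 10 genes with BTBR replicate 4 as the second highest array. The difference of Slc17a6 was 0.91 (standard error 0.72, limma adjusted p = 0.58) and 0.16 without BTBR replicate 1.

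Of the cytoskeletal genes, Synpo2, which encodes the actin-binding protein synaptopodin 2, measured 10.15, 10.47, 10.21 and 10.99 on the B6 arrays and 14.53, 12.32, 9.56 and 10.03 on the BTBR arrays. BTBR replicates 1 and 2 were above all B6 arrays, and replicates 3 and 4 were below all of them. Synpo2 differed by 1.16 (standard error 0.96, limma adjusted p = 0.603) with all arrays and by 0.18 without BTBR replicate 1 (limma adjusted p = 0.935). That difference depended on the probe, with 0.46 and 0.15 for the other probes tested, -0.36 for the dim one, and 0.44 for the median over the probes tested (limma adjusted p = 0.443). Tnnt1, slow skeletal troponin T, measured 9.68, 9.97, 9.49 and 10.50 on the B6 arrays and 12.12, 10.38, 9.23 and 9.26 on the BTBR arrays. Tnnt1 was also below all B6 arrays on BTBR replicates 3 and 4. Its difference was 0.34 (standard error 0.59, limma adjusted p = 0.828), and -0.29 without BTBR replicate 1 (limma adjusted p = 0.775).

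No strain difference among the 10 genes passed limma, the test that sets the difference against the spread between mice. At a Benjamini-Hochberg adjusted p under 0.05 it called 0 of 10 genes, whereas it called 7.82% of all genes tested, and at an unadjusted p under 0.05 it also called 0 of 10 (19.2% of all genes). By the means, 10 of 10 genes were higher in BTBR (52.9% of all genes), with a median difference of 0.96 against 0.01 over all genes. The SD within BTBR had a median of 1.50 over the 10 genes and 0.14 over all genes, and within B6 0.30 and 0.11.

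Without BTBR replicate 1, limma called 0 of 10 genes (6.45% of all genes) at an adjusted p under 0.05 and 1 of 10, Lef1, at an unadjusted p under 0.05 (16.8% of all genes). By the means, 8 of 10 genes were still higher in BTBR (53.0% of all genes), and Tnnt1 and Ramp3 were lower. The median difference was 0.21 against 0.01 over all genes, and the median SD of the 3 remaining BTBR arrays was 0.55 against 0.14. The exact permutation p of Lef1 was 0.0571, the smallest that 3 arrays against 4 allow.

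The rank product, the test of the study's methods, gave another count. It ranks differences between single arrays and shuffles probes within arrays. At a percentage of false prediction of 0.05 or less it called Prkcd, Slitrk6, Slc17a6, Zic1 and Synpo2 up-regulated in BTBR, 5 of 10 genes, against 1.93% of all genes. Without BTBR replicate 1 it called 0 of 10 (1.23% of all genes). For Prkcd the percentage of false prediction, as a fraction, went from 0.00665 to 0.265, and for Slitrk6 from 0.00676 to 0.295.

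**Figure D2:**
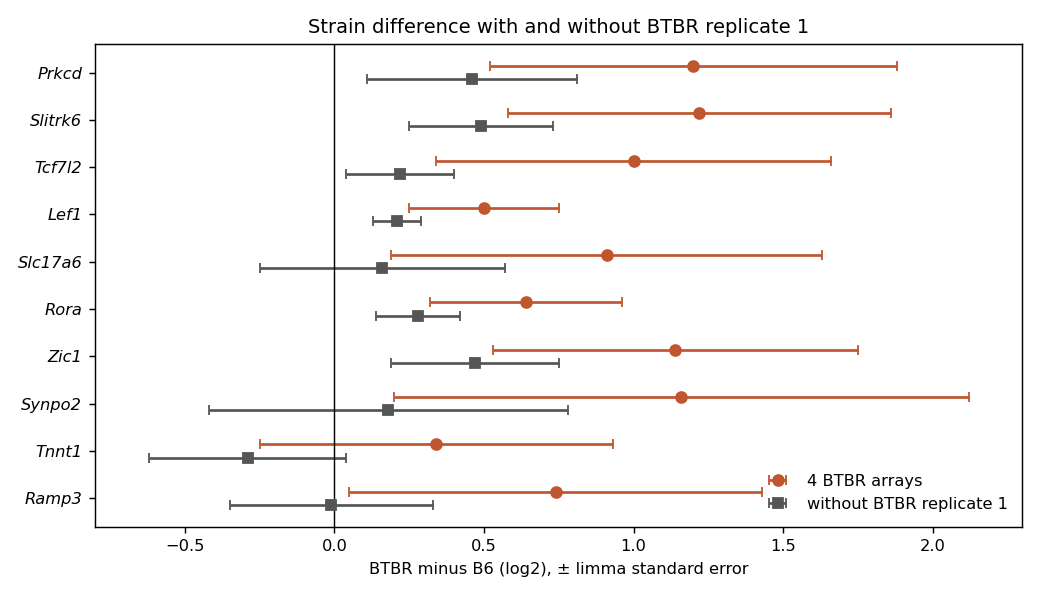
Strain difference (BTBR minus B6, log2) of the brightest probe of each gene with all 4 BTBR arrays (circles) and without BTBR replicate 1 (squares), with limma standard errors as bars. All 10 circles are above 0, and 8 of 10 squares.

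BTBR replicate 2 was the second highest array for 7 of the 10 genes, B6 replicate 4 for Prkcd and Tnnt1, and BTBR replicate 4 for Slc17a6. BTBR replicates 1 and 2 were together the 2 highest arrays for 7 of 10 genes and for 13.2% of all genes tested. Both sat on slide 1, where the difference of Prkcd was 2.24, against 0.17 on slide 2. For Slitrk6 it was 2.35 on slide 1 and 0.10 on slide 2. The sign turned between slides for Synpo2, with 3.12 on slide 1 and -0.80 on slide 2, and for Tnnt1, with 1.42 and -0.75. Tcf7l2 and Ramp3 also changed sign, from 2.06 to -0.05 and from 1.73 to -0.24. The difference between slides was tested as an interaction in limma and passed for 0 of 10 genes, with adjusted p from 0.411 for Synpo2 to 0.807 for Slc17a6. Each slide held 2 mice of each strain. The share of all genes that passed the interaction is not given here, so the 0 of 10 is no result about these genes in particular.

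Probes of 1 gene were next set side by side by their gap, the value of BTBR replicate 1 minus the mean of the other BTBR arrays. The gap was 2.96 and 2.73 for the Prkcd probes, 3.02 and 2.95 for the Slc17a6 probes and 2.70 and 2.72 for the overlapping Zic1 probes. These genes gave the same picture with either probe. Rora gave 1.44, 1.33 and 1.15 with its 3 probes. Lef1 gave 1.15 with its brightest probe, 1.75 with the other one tested and -0.02 with the dim one. Tcf7l2 gave 3.14, 2.81 and 1.99 with the probes tested and -0.10 with the dim probe that did not enter the test. Synpo2 was the gene whose probes differed most, with 3.89, 1.29, 0.28 and 0.13 in the order in which their sequences are printed. The last of these was the dim probe. The probe with 0.28, the farthest of the 4 from the brightest in the genome, measured between 7.94 and 8.37 on all arrays.

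**Figure D3:**
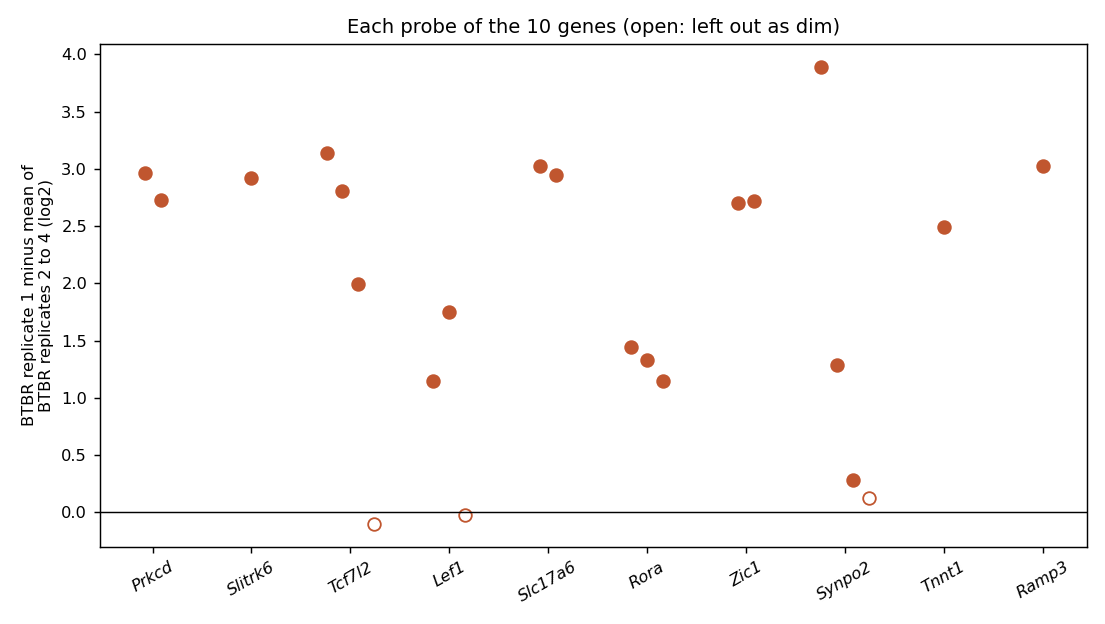
Gap of each of the 23 probes (BTBR replicate 1 minus the mean of BTBR replicates 2 to 4, log2), by gene. The 20 filled points are probes tested and lie between 0.28 and 3.89, and the 3 open points, left out as dim, lie between -0.10 and 0.13.

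Promoters were searched for the core letters of 2 kinds of factor among the 10 genes. RefSeq promoter windows on GRCm38.p6, from 250 bases before to 50 after a gene start, were found for 10 of 10 genes, 16 windows in all. The TCF/LEF core CTTTGA, on either strand, was found in 2 of the 16 windows, 1 of Prkcd and 1 of Lef1, and in 16% of all 32851 windows. The receptor half-site AGGTCA, of the kind that Rora binds, was found in 0 of the 16 windows and in 16.3% of all. A match is a description of letters and not a binding site. The Prkcd window, chr14:30626159-30626458 on the minus strand, is printed with the match on its reverse strand in capitals.
Prkcd promoter: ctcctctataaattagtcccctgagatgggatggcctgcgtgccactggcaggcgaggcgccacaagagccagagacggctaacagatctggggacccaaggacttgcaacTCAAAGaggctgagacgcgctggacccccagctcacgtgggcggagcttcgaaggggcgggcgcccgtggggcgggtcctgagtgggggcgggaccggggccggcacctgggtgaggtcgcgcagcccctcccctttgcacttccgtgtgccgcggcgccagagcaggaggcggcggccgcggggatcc

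Most of the further thalamic genes were high on the same array. Of 16 other genes listed as thalamic markers, 15 were tested. BTBR replicate 1 was the highest array for 12 of them (17.2% of all genes). It was over 1 above the mean of the other BTBR arrays for 14 (0.940% of all genes). Of the 14, Foxp2 and Nexn were higher still on BTBR replicate 2, at 11.72 and 10.53. On B6 replicate 2 they measured 10.26 and 9.64, above the other B6 arrays. Adra2b, an adrenergic receptor, was the exception on the gap, at 0.07, but it was dim, between 7.70 and 8.07 on all arrays. Shox2 did not pass the filter. Limma called 0 of the 15, which is near the share of 7.82% over all genes. Their median strain difference was 0.63, and 0.09 without BTBR replicate 1. Gbx2, a homeobox factor of the developing thalamus, measured 7.90, 7.86, 7.95 and 7.93 on the B6 arrays and 11.13, 8.10, 7.68 and 8.01 on the BTBR arrays. BTBR replicate 1 alone was high. The B6 values of Gbx2 were nearly level, but they lay close to dim signal. The Tcf7l2 probe that was never well above background read 7.69 to 7.84. Calb2, which encodes the calcium-binding protein calretinin, had a gap of 3.30 and a strain difference of 0.40, which was -0.42 without BTBR replicate 1. The brightest of the list, Ntng1, for the cell-surface protein netrin-G1, and Cacna1g, for a T-type calcium channel, had gaps of 1.65 and 1.58 and strain differences of 0.02 and 0.03, which were -0.39 and -0.37 without that array.

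The genes whose pattern over the 8 arrays was nearest to that of Prkcd and Slitrk6 were found by the root mean square distance between centred profiles. Among all 18399 genes, Tcf7l2 was the nearest after that pair, Zic1 came next, and the other 6 genes described here ranked between 13 and 74. Outside the 10 genes the nearest were Gbx2, Plekhg1, Inadl, Rab37, Wnt9b, Irx1, Vipr2, Sln, Syt9 and Mrvi1, with distances from 0.39 to 0.53. Of these, Gbx2, Plekhg1, Inadl and Vipr2 were on the list of other thalamic markers. The search itself picked genes that were high on BTBR replicate 1, so their gaps are a description: they lay between 1.81 for Sln and 3.20 for Gbx2. With BTBR replicate 1 left out of the distance, Gbx2 moved from rank 5 to rank 5112, and Tcf7l2 from 3 to 17. The other 7 of the genes described here moved farther, Zic1 from 4 to 2108, Lef1 from 46 to 529, Rora from 30 to 5154 and Tnnt1 from 13 to 10209. Ramp3, Synpo2 and Slc17a6 then ranked 16411, 17387 and 18002. The ranks of the 10 nearest genes outside the set then lay between 91 for Sln and 10412 for Syt9. The distance is a description over 8 arrays that share 1 normalization, with no test.

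**Figure D4:**
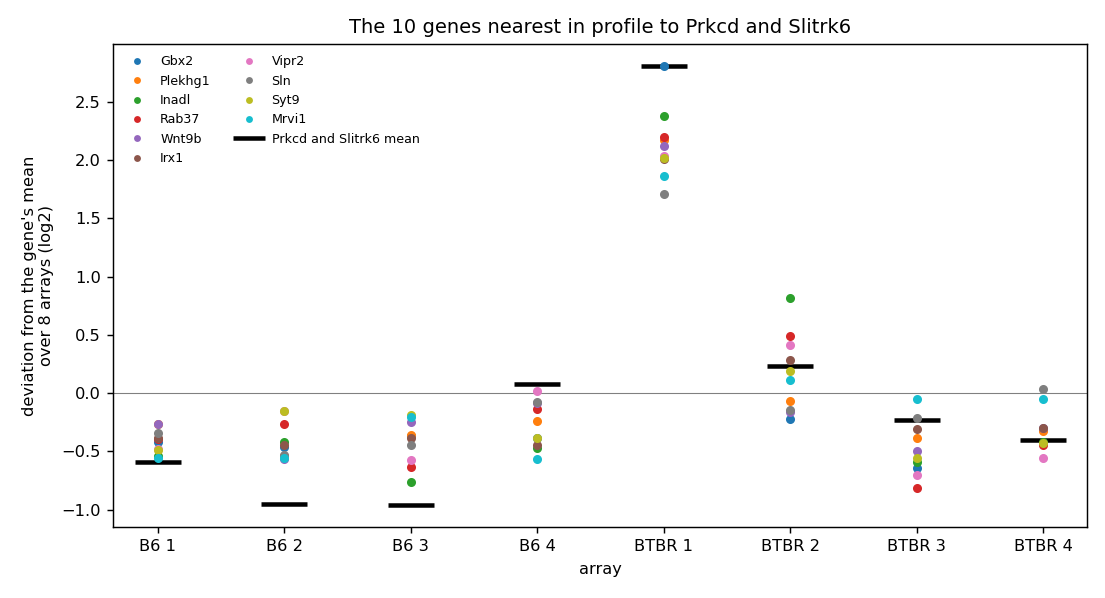
Deviation of each gene from its own mean over the 8 arrays (log2) for the 10 nearest genes (points) and the mean of Prkcd and Slitrk6 (black bars), by array. The bar and all points are highest on BTBR replicate 1, where the bar stands at 2.81.

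Markers of other tissues and cell types on these arrays are given beside the 10 genes as the median deviation of a list from its B6 mean, in log2 units. The 10 genes themselves deviated by 3.17 on BTBR replicate 1, 0.66 on BTBR replicate 2, -0.05 on replicate 3 and 0.10 on replicate 4. Their summed normalized intensity was 167000 on BTBR replicate 1, between 19000 and 35300 on the other BTBR arrays and between 19400 and 22300 on the B6 arrays. The other thalamic markers summed to 76700, between 16600 and 22800, and between 20200 and 22900. Habenula markers, of which 4 of 7 were tested, deviated by 1.96 on BTBR replicate 1 and by 0.28 on replicate 2. Tac2 and Gng8, the brightest of them, had gaps of 1.64 and 3.31, and Gng8 was 12.40 on BTBR replicate 1, between 8.67 and 9.55 on the other BTBR arrays and between 9.91 and 10.26 on the B6 arrays. Its strain difference was -0.17 (limma adjusted p = 0.931), and without BTBR replicate 1 it was called lower in BTBR, at -1.0 (limma adjusted p = 0.0213). Pou4f1, a transcription factor that defines the habenula, had a gap of 0.12. The 4 habenula markers summed to 21100 on BTBR replicate 1, between 4790 and 7130 on the other BTBR arrays and between 3840 and 6160 on the B6 arrays.

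Choroid plexus markers, 13 of 14 tested, deviated by 1.35 on BTBR replicate 1 and by 1.11 on replicate 2. BTBR replicate 1 was the highest array for 11 of the 13, with Enpp2 and Clic6 as the brightest. They summed to 240000 on that array, between 65200 and 223000 on the other BTBR arrays and between 55000 and 144000 on the B6 arrays. On BTBR replicate 1 Enpp2 measured 17.04 and Clic6 14.22 on the log2 scale, so the sum rests largely on Enpp2. Striatal markers, all 11 tested, took another course: BTBR replicate 1 was the highest array for 0 of 11, and they deviated by 0.80 there, by 2.95 on BTBR replicate 2 and by 1.40 on B6 replicate 2. On BTBR replicate 1, 8 of the 11 were above their B6 mean. Penk and Pde10a are the brightest of them, and Pde10a was lower there, at 12.42 against a B6 mean of 13.1. Their sum was 90400 on BTBR replicate 1, 397000 on BTBR replicate 2 and between 38000 and 165000 on the B6 arrays. Oligodendrocyte markers, Mbp among the brightest, deviated by 0.39 on BTBR replicate 1 and by 0.56 on replicate 2. Neocortex markers deviated by 0.93 and 0.50, and meninges markers, led by Dcn and Slc13a4, by 0.37 and -0.27. Ctgf and Fezf2 are the brightest of the neocortex list, and Fezf2 went against it, with 10.80 and 10.38 on these arrays and a B6 mean of 11.55. The neocortex list summed to 21200 on BTBR replicate 1 against 8610 to 17800 in B6, and the meninges list to 55500 against 22500 to 63300.

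All listed markers of the hippocampal fields but Iyd passed the filter on dim probes, and as lists they were lower on BTBR replicates 1 and 2. Dentate markers, 7 of 7 tested, deviated by -1.23 on BTBR replicate 1 and -1.54 on replicate 2, and Trpc6, a cation channel, was called down in BTBR by 0.95 on the log2 scale (limma adjusted p = 0.0458; 0.121 without BTBR replicate 1). Calb1 and Lct are the brightest of that list. CA1 markers, led by Mpped1 and Pou3f1, deviated by -0.70 and -0.71, with 2 of 5 above their B6 mean on each of these arrays. Wfs1 went against the list: it was above its B6 mean on both arrays, higher in BTBR by 0.71 (limma adjusted p = 0.0959) and called up without BTBR replicate 1, by 0.90 (limma adjusted p = 0.0204). CA3 markers, 4 of 5 tested and led by Bok and Grik4, deviated by -0.76 and -0.85. Coch, a CA3 marker chosen here after its values were seen, went the other way, with deviations of 1.02 and 1.70. On BTBR replicate 1 the dentate markers summed to 35400, against 30300 to 46900 on the other BTBR arrays and 40500 to 66200 on the B6 arrays. Their median strain difference was -0.85, and -0.72 without BTBR replicate 1. The CA1 markers summed to 74000, against 86100 to 164000 on the other BTBR arrays and 112000 to 128000 on the B6 arrays. The part of any of these lists in the values of the 10 genes was not tested.

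**Figure D5:**
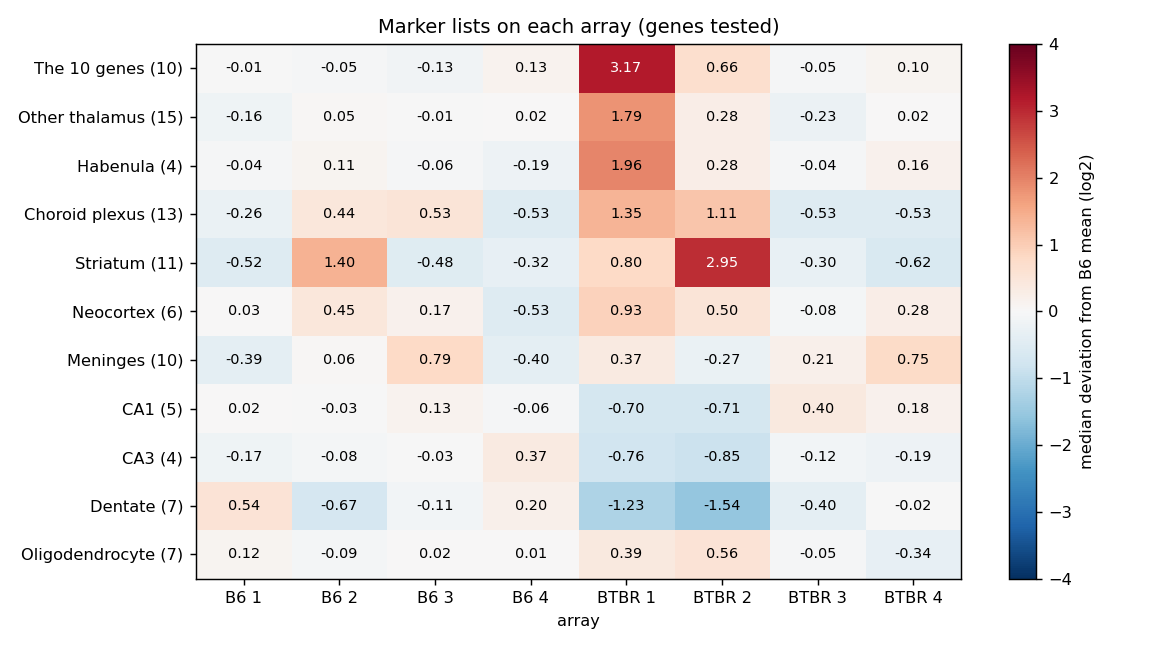
Median deviation from the B6 mean (log2) of the 10 genes and of 10 marker lists, by array, with the number of genes tested in parentheses. The 10 genes stand at 3.17 on BTBR replicate 1, and striatal markers at 2.95 on BTBR replicate 2.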

How the data were processed

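The authors deposited intensity values of each Cy3 spot, mean and local background, not scaled between arrays, from Feature Extraction version 10.7.3.1. The deposited matrix holds log2 values that the authors background subtracted and quantile normalized with Agi4x44PreProcess; it was used as an alternative only. Here, local background was subtracted (minimum 0.5), 50 was added, log2 values of all spots were quantile normalized, and the median was taken over replicate spots. Tests used 27982 of 41174 probes, those well above background on at least 75% of the arrays of either strain, without controls and without 154 that carried an outlier flag. No sample was left out. Limma 3.58.1 in R 4.3.3 fitted strain over all probes tested, with Benjamini-Hochberg adjustment; a gene took its brightest probe tested. The rank product used 100 permutations. Limma and the rank product were tested on simulated data. Each mouse was 1 replicate, and precision is limited by 4 arrays per strain. Figures were drawn with matplotlib. The 10 genes and all marker lists were chosen with earlier results of these data known. The rule for naming took in all probes of the 10 genes, of which those that the results turn on are given by ID, with the 10 genes nearest in profile, at most 2 brightest genes of each marker list and any other thalamic gene called. Gbx2, Calb2, Adra2b, Foxp2, Nexn, Pou4f1, Coch, Wfs1 and Trpc6 were singled out after their values were seen. The qRT-PCR measurements were not analysed here. Some members of the marker lists are not reported here by name.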

Additional observations from a re-analysis of the deposited data

Results flagged for a closer look

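The highest BTBR value of Prkcd, on BTBR replicate 1, stood apart from the other 3, with a gap to its nearest neighbor that made up 0.851 of the range of the 4 BTBR arrays. The other Prkcd probe gave 0.734. The same ratio was 0.852 for Slitrk6 within B6, where B6 replicate 4 was the high array. The values 0.851 and 0.852 exceed the critical value of Dixon's test for 4 samples, which chance passes in about 1 group in 20. Among probes that were not the brightest of their gene, it was also exceeded within BTBR by 1 of Tcf7l2 (0.834) and 1 of Lef1 (0.831), and within B6 by 1 of Rora (0.936), so the outcome depends on the probe and is not particular to Prkcd and Slitrk6. On their brightest probes, the ratio of the other 9 genes within BTBR lay between 0.445 for Synpo2 and 0.792 for Lef1, and BTBR replicate 2 was the second highest of the 8 arrays for 7 of the 10 genes.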

How the results depend on the processing

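The 10 strain differences were recomputed under 19 alternatives each, and limma called 0 of these 190 values. The sign held in 188 of them, and the exceptions were Ramp3 at -0.01 and Tnnt1 at -0.29 without BTBR replicate 1; with other arrays left out, they reached 1.16 and 0.67. The number of genes called was 0 under every limma alternative, with adjusted p between 0.15 and 0.994. At an unadjusted limma p under 0.05 it was up to 3 of 10, without BTBR replicate 3 or 4. The share of all genes at that threshold was 19.2% with all arrays, and is not given here for those fits. The rank product called 5, and the cause of its difference from limma was not tested. With BTBR replicate 1 left out, an alternative added after the data were seen, the rank product called 0. The median strain difference of 0.96 lay between 0.82 and 1.0 under other normalizations, filters and probe summaries, and between 0.21 and 1.38 with 1 array left out, the lowest without BTBR replicate 1 and the highest without BTBR replicate 3. The median gap of BTBR replicate 1 of 2.94 lay between 2.74 and 3.08 under all alternatives that could move it. With the replicate number as a block, limma called 0 of 10 genes, and 1650 instead of 2129 of all probes; same-numbered mice of the strains correlated between -0.14 and 0.51, so the numbers were not taken as pairs. With 4 mice per strain, 2 of them per slide, and an offset that compresses low signals, differences in dim probes are the least certain.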
